A study of Mus musculus with 12 samples.

Results

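The autosomal recombination hotspots described here are those found in the testis of both wild type and Ankrd31 knockout mice and over 2-fold higher in relative strength in the knockout. A hotspot counted as shared when its intervals in the wild type list and in the knockout list overlapped by at least 1 bp. Its strength, the reads in the interval minus a background estimate, was put relative to the median of all autosomal shared hotspots in its list, 182 for wild type and 151 for knockout. The hotspots were selected on these measured strengths: those with a log2 ratio of knockout over wild type above 1 were kept and are called higher hotspots. They numbered 1334 of the 10760 shared hotspots on the 19 autosomes, or 12.4%. Another 1708 (15.9%) were over 2-fold lower and 7718 lay within 2-fold. The higher hotspots made up 10.5% of the 12663 autosomal hotspots of the wild type list and 6.52% of the 20448 of the knockout list. Strengths and ratios are therefore a description of what the rule picked, also where those of the other shared hotspots stand beside them, and nothing rests on them.

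The series holds 12 samples of male mouse whole testis. The lists used here concern 4 of them, and it is not stated whether each list holds 1 or both samples of its genotype. These 4 are 2 samples of adult C57BL/6JCrl (B6) wild type mice and 2 of adult mice carrying the Ankrd31 allele tm1Atot. The sources used here do not give the genetic background of that line. In both genotypes, DNA bound by the recombinase DMC1 was precipitated with a goat antibody, enriched for single strands and sequenced (single-stranded DNA sequencing, SSDS). The H3K4me3 and input libraries, made at 13 days after birth, were not used here. Only 1 hotspot list per genotype was used, with no values for single animals, so animal-to-animal spread is unknown for every difference between genotypes, and differences of strain and of genotype cannot be told apart. The hotspots held 3783556 reads on the autosomes of the wild type list and 3538576 on those of the knockout list. Intervals are 95% intervals that cover no spread between animals. Those for log2 ratios use Poisson counting of reads, with the background taken as known. Those for shares are exact binomial (Clopper-Pearson) and those for medians use order statistics. Both of the latter treat hotspots as independent, though neighbouring hotspots were often alike in ratio, so they may be too narrow. No p-values are given, because hotspots of 1 list are not replicates.

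Meiotic recombination begins with programmed DNA double-strand breaks made by the SPO11 complex. Their ends are cut back to single strands, which DMC1 coats for the search of the homologous chromosome, so DMC1-SSDS signal reflects both how often a site is broken and how long DMC1 stays there. In mice, most breaks form where the methyltransferase PRDM9 binds its motif and marks nearby nucleosomes, and breaks move to promoters and other PRDM9-independent sites when PRDM9 is absent. ANKRD31 belongs to the protein assemblies on chromosome axes that make breaks possible, together with REC114 and MEI4, and is known for its part in break formation in the region shared by the X and Y chromosomes.

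Promoters are shown for named higher hotspots that covered a gene start listed in a RefSeq promoter table. They are given because the hotspot with the largest ratio of all was among these hotspots. That table covers 16456 of the 20661 autosomal protein-coding genes, so other named hotspots may also lie over a start. Each sequence is the 250 bases before the start, read 5' to 3' on the strand of the gene, from RefSeq on GRCm38.p6 (the coordinates of mm10). Capitals mark the GC box bound by SP1 family factors, GGGCGG on either strand. The other capitals are a match to the TATA box, searched as TATAAA.
Tnfaip3 promoter: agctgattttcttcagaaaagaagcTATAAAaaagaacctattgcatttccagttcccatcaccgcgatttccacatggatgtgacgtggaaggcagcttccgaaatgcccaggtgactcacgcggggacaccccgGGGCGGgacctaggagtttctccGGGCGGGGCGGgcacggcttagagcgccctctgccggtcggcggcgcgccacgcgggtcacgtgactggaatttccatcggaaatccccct
Cplane1 promoter: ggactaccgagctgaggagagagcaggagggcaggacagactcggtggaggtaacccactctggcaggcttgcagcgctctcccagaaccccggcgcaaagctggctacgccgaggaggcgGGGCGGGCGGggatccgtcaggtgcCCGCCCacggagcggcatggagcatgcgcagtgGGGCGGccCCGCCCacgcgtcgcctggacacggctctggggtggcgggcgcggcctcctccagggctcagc
Map7 promoter: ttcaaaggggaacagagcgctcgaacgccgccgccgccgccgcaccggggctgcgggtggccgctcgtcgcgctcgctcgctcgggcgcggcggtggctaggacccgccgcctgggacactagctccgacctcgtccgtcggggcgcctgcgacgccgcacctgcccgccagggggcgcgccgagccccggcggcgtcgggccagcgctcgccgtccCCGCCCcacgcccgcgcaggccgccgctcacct
Zfp616 promoter: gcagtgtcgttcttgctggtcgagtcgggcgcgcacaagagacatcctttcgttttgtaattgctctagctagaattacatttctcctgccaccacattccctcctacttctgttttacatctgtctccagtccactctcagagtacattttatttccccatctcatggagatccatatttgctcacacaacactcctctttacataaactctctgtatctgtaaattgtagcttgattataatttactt
The Tnfaip3 stretch is chr10:19015411-19015660 on the minus strand, with 3 GGGCGG matches and 1 TATAAA match. The Cplane1 stretch, chr15:8168856-8169105 on the plus strand, has 5 GGGCGG matches and 72.8% GC. Map7, chr10:20148670-20148919 on the plus strand, has 1 match and 80.4% GC, and its start lay in the knockout interval but not in the wild type interval. Zfp616, chr11:74060647-74060896 on the plus strand, has no match and 41.6% GC. Both strands were searched and overlapping matches were counted. Of the 32851 promoters of the table, 32.7% hold GGGCGG, 12.4% TATAAA and 33.8% CCAAT, which none of these 4 holds, and the median GC content is 52.4%. A match is a run of letters and not a measured binding site.

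The ratio rule favours hotspots with low wild type values, so the strengths of the higher hotspots describe the choice and are no separate result. Their median wild type strength was 78 reads above background (75 to 81), against 208 (203 to 214) for the other 9426 shared hotspots, and 1101 (82.5%) lay below the median of the whole wild type list. In the knockout list their median strength was 181 (173 to 189), against 145 (142 to 148). The rule, with medians of 182 and 151, makes all 1334 higher in the knockout list as deposited. Only 752 (56.4%) were over 2-fold higher on that scale. The ratio was modest in most. The median log2 ratio was 1.34, 959 (71.9%) were 2 to 3-fold higher, 375 over 3-fold, 131 over 4-fold (1.22% of shared hotspots) and 8 over 8-fold. The median counting standard error of the log2 ratio was 0.21, so that for 588 (5.46% of shared hotspots) the lower bound of the counting interval itself exceeded 1. Added up, their strengths were 3.88% of the total of the autosomal wild type list (2176 kb covered, mean strength 104.9) and 9.60% of that of the knockout list (2152 kb, mean 238.3). Of the 1000 strongest hotspots of a list, X chromosome included, 59 in the knockout list and 0 in the wild type list were higher hotspots.

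The 3 hotspots just inside the threshold each went from a strength of 47 to 78 (log2 1.00), inside Iqgap2 on chromosome 13, near Hibadh on chromosome 6 and near Clint1 on chromosome 11. Just outside were hotspots near Chchd3 (170 to 282, log2 0.9996) and near Adarb2 (334 to 554) and 1 inside Unc5d (111 to 184). Their counting intervals span the threshold on both sides.

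**Figure D1:**
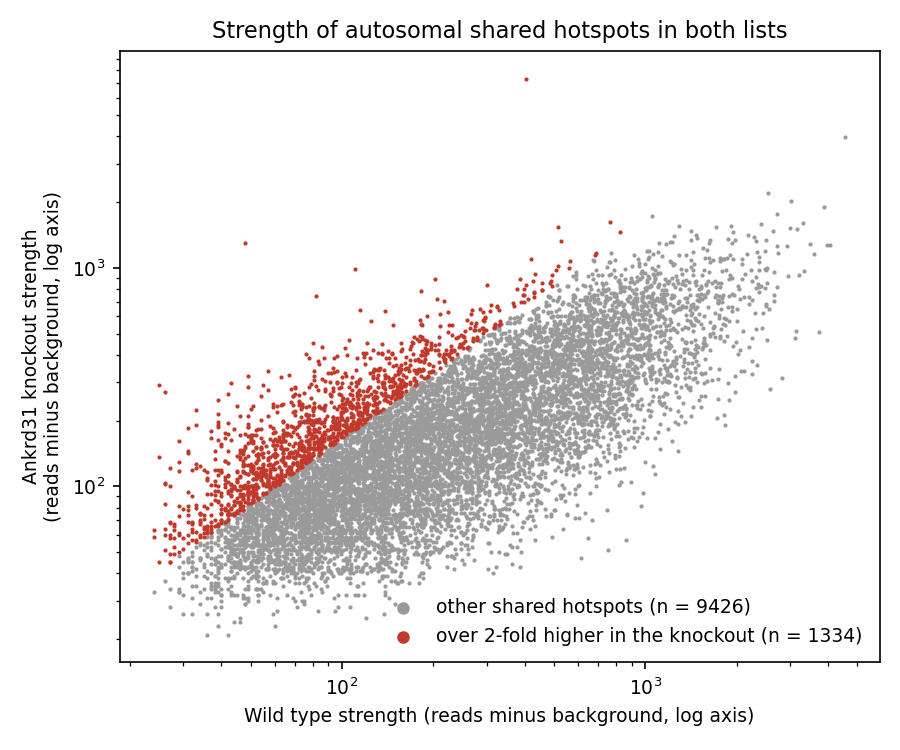
Strength of each of the 10760 autosomal shared hotspots in the wild type list (x axis) and the knockout list (y axis), in reads minus background on log axes, with the 1334 higher hotspots in red. The straight edge of the red points is the 2-fold rule itself; the topmost point, at 405 and 7346, is the hotspot inside Enpp6.

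The largest ratio belonged to a hotspot at the start of Tnfaip3, which encodes A20, a ubiquitin-editing inhibitor of NF-kB signalling. At chr10:19014621-19015993, its strength was 48 (58 reads) in wild type testis and 1293 (1316 reads) in knockout testis, a log2 ratio of 5.02 (4.57 to 5.48). It ranked 12389 in the wild type list and 135 in the knockout list, and its centre lay 103 bp from the gene end that is the annotated start. Its knockout interval (1960 bp) contained the whole wild type interval (1372 bp).

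The second largest ratio belonged to a hotspot inside Enpp6, which encodes a choline-specific phosphodiesterase known from oligodendrocytes. At chr8:47002691-47005005, 64651 bp from the nearer end of the gene, it had a strength of 405 (435 reads) in wild type and 7346 (7461 reads) in knockout testis (log2 4.45, 4.30 to 4.60). It ranked 2977 in the wild type list and 1 in the knockout list, X chromosome included. Unlike the Tnfaip3 site, it was above the median of shared hotspots in both lists.

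Of the other 8 hotspots with the largest ratios, 2 lay at a gene end. The hotspot at an end of Lypla1, an acyl-protein thioesterase gene on chromosome 1, went from 25 to 291 (log2 3.81, 3.15 to 4.47). The hotspot at an end of Cplane1, a gene required for cilia, on chromosome 15, went from 43 to 298 (log2 3.06, 2.58 to 3.54). Inside genes, a hotspot in Cntnap5b, a neuronal adhesion gene on chromosome 1, went from 110 to 983 (log2 3.43). One in Map7, a microtubule-associated protein gene on chromosome 10, went from 49 to 320 (log2 2.98). Its wild type centre was 1651 bp from the Map7 start, and its knockout interval of 3474 bp was more than 2-fold wider than the wild type interval of 1494 bp. The intervals overlapped by 1131 bp, and only the knockout interval covered the Map7 start. The remaining 4 lay outside protein-coding genes. They were 5107 bp from the planar polarity gene Celsr1 (26 to 270, log2 3.65), 19103 bp from Eif4a3l1 (82 to 745, log2 3.45), 1253014 bp from Edil3, the nearest protein-coding gene (33 to 223, log2 3.03), and 22517 bp from Galc, the galactosylceramidase gene (39 to 248, log2 2.94). All 10 were thus low in the wild type list, with strengths of 25 to 110, except the site in Enpp6.

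Ordered by knockout strength instead, the hotspots in Enpp6 and at Tnfaip3 stood first and sixth, and the others had smaller ratios and mostly lay far from genes. A hotspot 429409 bp from the cadherin gene Cdh8 went from 764 to 1613 (log2 1.35) and one 481414 bp from Cylc2, a sperm head cytoskeleton gene, from 514 to 1543 (log2 1.86). Hotspots near Arhgap15, a Rac GTPase-activating protein gene (822 to 1466, log2 1.10), near the junction gene Cxadr (687 to 1169, log2 1.04) and near Igfbp3 (680 to 1146, log2 1.02) were close to the 2-fold limit. A pair of hotspots beyond the Eph receptor gene Epha6 on chromosome 16, 309403 and 783711 bp from it, went from 527 to 1322 (log2 1.60) and from 566 to 1074 (log2 1.19). Besides the sites in Enpp6 and at the start of Tnfaip3, whose centre is just inside that gene, 1 of the 10 had its centre inside a gene, that in Wwox, an oxidoreductase gene spanning a fragile site (420 to 1093, log2 1.65). The 5 strongest by wild type strength, those near Arhgap15, Cdh8, Cxadr and Igfbp3 and the farther site beyond Epha6, were all outside genes and 78899 to 783711 bp from one.

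The surroundings of the Enpp6 hotspot, examined after its values had been seen, showed the opposite difference. All 4 other shared hotspots within 1 Mb of it were over 2-fold lower in the knockout, with a median log2 ratio of -2.94 and strengths adding up to 2652 in wild type and 270 in knockout testis. They lay at or near Stox2 (385 to 43), Acsl1 (969 to 81), Ing2 (665 to 70) and Snx25 (633 to 76). From 1 to 2 Mb away, 9 of 9 shared hotspots had negative ratios and 6 were over 2-fold lower, among them a site at Ufsp2 (864 to 57, log2 -3.65), the lowest ratio of all autosomal shared hotspots, and one at Sorbs2 (745 to 78, log2 -2.99). Within 2 Mb there were 12 wild-type-only hotspots and 0 knockout-only ones. Farther out the picture was different. From 2 to 3 Mb, 2 of 4 ratios were negative, from 3 to 5 Mb 6 of 13 (median log2 0.05), and from 5 to 10 Mb 15 of 31 (median log2 0.01), with 25 knockout-only hotspots. Over the 13 shared hotspots within 2 Mb strengths added up to 6596 in wild type and 1123 in knockout testis. The number of mice that contributed to this pattern is not known from the lists.

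**Figure D2:**
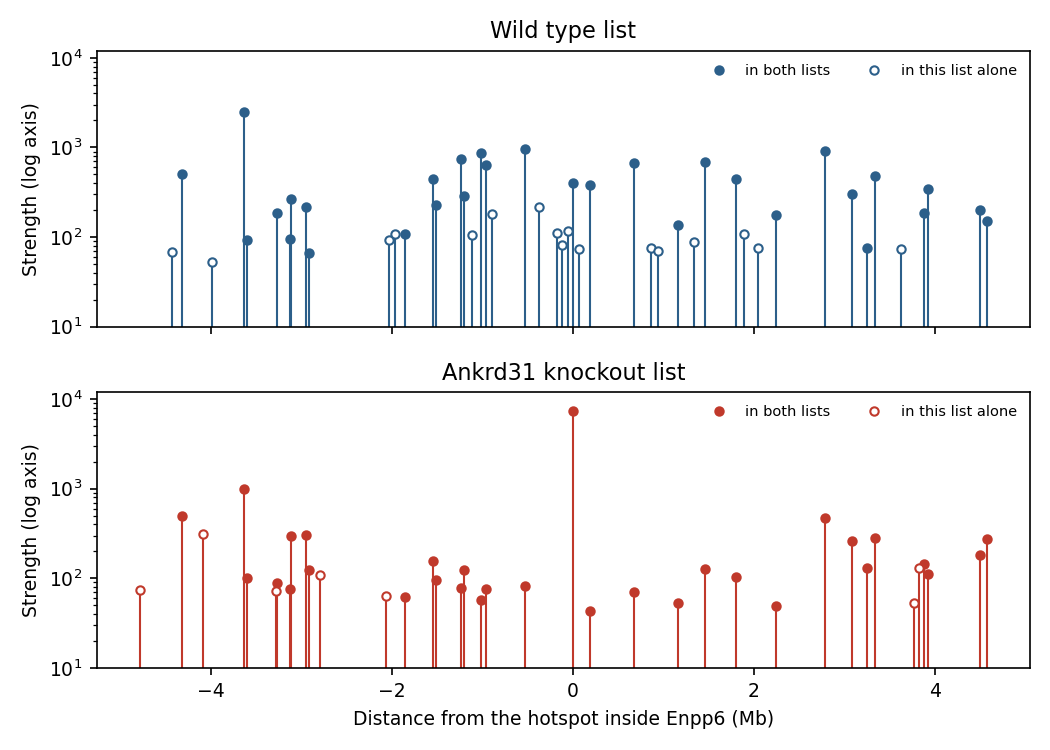
Strength (log axis, reads minus background) of every hotspot within 5 Mb of the hotspot inside Enpp6 in the wild type list (top) and the knockout list (bottom), by distance; filled points are in both lists and open points in 1 list alone. In the knockout list the Enpp6 site stands at 7346, the shared hotspots within 2 Mb are lower than in the wild type, and no knockout-only hotspot lies within 2 Mb.

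Lower neighbours were also found around some, but not all, of the other hotspots with the largest ratios. Within 1 Mb of the Tnfaip3 site, 12 of 14 other shared hotspots had negative ratios (median log2 -0.79), as had 21 of 22 around the Map7 site (median -0.86), which lies on the same chromosome close enough to share neighbours with it, and 11 of 12 around the Cplane1 site (median -1.10). Around the Lypla1 site 6 of 8 were negative (median -0.35). By contrast, neighbours of the Cntnap5b site (median 0.37, 3 of 10 negative), the Eif4a3l1 site (0.22, 1 of 8) and the Edil3 site (0.81, 0 of 3) were mostly higher, and those of the Celsr1 and Galc sites were balanced (6 of 12 and 7 of 14 negative). Grouped after these values had been seen, the 39 higher hotspots at gene ends had neighbours with a median of -0.31 (-0.46 to -0.09), and 29 of the 39 (74.4%) had a negative median around them. The 1295 not at gene ends had a median of 0.19 (0.15 to 0.21) and 33.5% were negative. Other shared hotspots at gene ends lay between these, at -0.12 (-0.19 to -0.05), and 60.83% (54.35 to 67.05) were negative. That interval overlaps the one for the 39 higher hotspots at gene ends (57.87 to 86.96).

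Most higher hotspots lay outside protein-coding genes. Only 397 of 1334 (29.8%, 27.3 to 32.3) had their centre inside one, against 51.5% (50.5 to 52.5) of the other shared hotspots and 76.6% (74.6 to 78.6) of those over 2-fold lower. The share was lower in the higher hotspots than in the other shared hotspots on 19 of 19 autosomes. Counting genes of every annotated type, 41.1% were inside a gene against 59.7%. A long noncoding RNA gene alone held 9.67% (8.14 to 11.4), against 7.22% (6.71 to 7.77) of the other shared hotspots and 3.51% of the lower ones. Whether a centre inside a gene was in an exon, an intron or a UTR is not given by the gene table used. The share inside genes followed the ratio over its whole range. With shared hotspots in 10 bins of 1076 by ratio, it went from 81.0% in the lowest bin through 46.2% and 43.0% in the middle bins to 29.4% in the highest, and it was lower in each bin than in the one before except for a step from 39.5% to 40.3%.

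**Figure D3:**
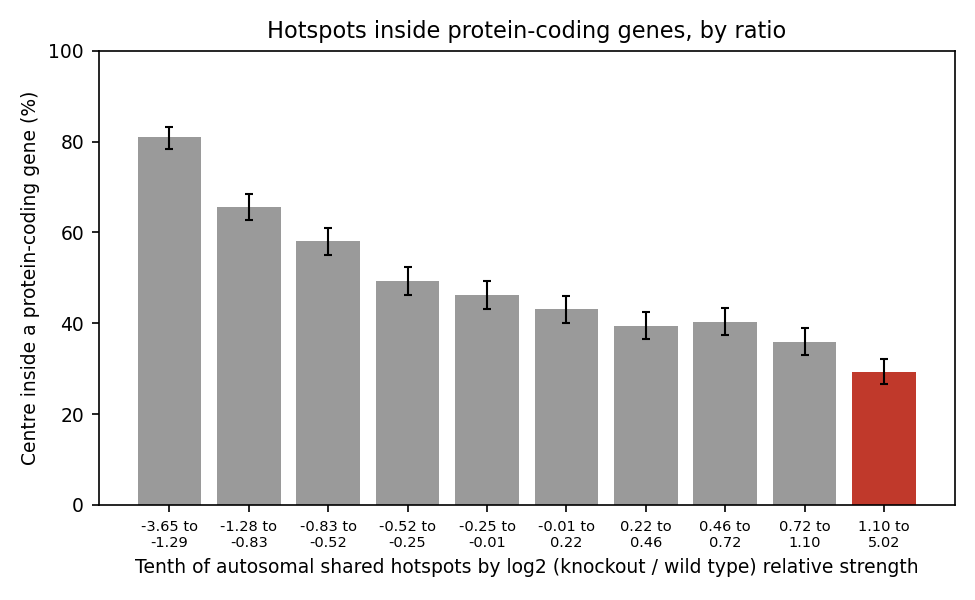
Percentage of autosomal shared hotspots with their centre inside a protein-coding gene (y axis) in 10 bins by log2 ratio (x axis, range of each bin), with exact 95% binomial intervals; each bar holds 1076 hotspots and the red bar those with the highest ratios. The bars go from 81.0% at the left to 29.4% at the right.

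The gap was present at like strength. To compare hotspots of like wild type strength, the shared hotspots were split into 5 equal bins by wild type strength. In the weakest bin, 30.9% (27.4 to 34.4) of 700 higher hotspots were inside protein-coding genes against 42.9% (40.3 to 45.5) of the others. In the following bins the shares were 31.2% against 50.5%, 26.6% against 51.3% and 24.3% against 54.0%. In the strongest bin only 13 higher hotspots were found, 1 of them inside a gene (7.69%, 0.195 to 36.0), against 56.0% of the others. Higher hotspots themselves made up 32.5% of the weakest bin, 16.7%, 8.74% and 3.44% of the next 3 and 0.604% of the strongest. Equal bins by the mean of both log2 relative strengths, chosen after seeing the data, gave the same order, from 34.6% against 48.9% in the weakest to 20.8% against 50.2% in the strongest.

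**Figure D4:**
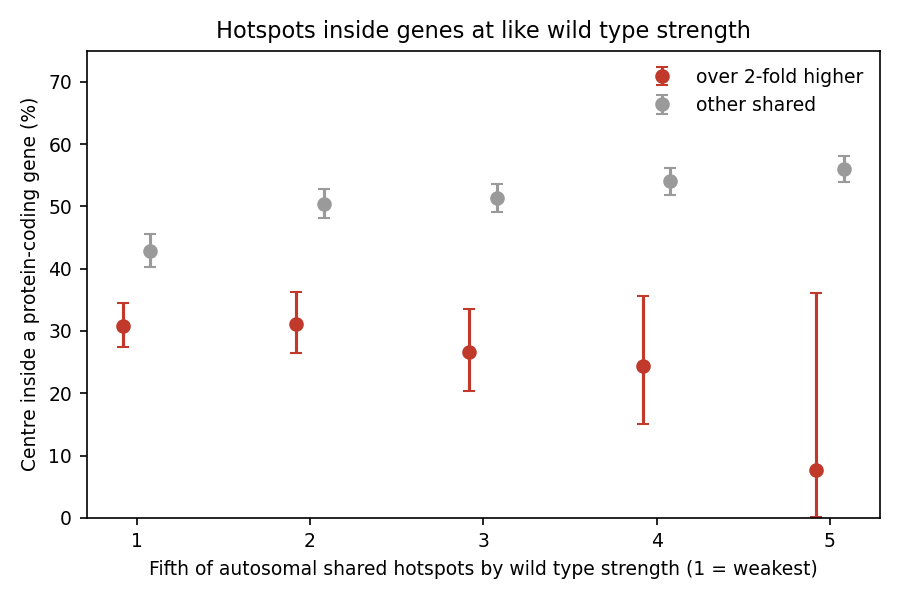
Percentage of hotspots with their centre inside a protein-coding gene (y axis) in 5 equal bins of autosomal shared hotspots by wild type strength (x axis, 1 = weakest), for higher hotspots (red) and the other shared hotspots (grey), with exact 95% binomial intervals. The red points lie below the grey points in every bin, with 13 higher hotspots in the strongest.

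The share also differed with the length of the surrounding gene. Of shared hotspots inside genes of up to 50 kb, 6.98% (5.55 to 8.63) were higher hotspots, against 4.74% (3.45 to 6.33) for genes of 50 to 100 kb, 5.42% for 100 to 200 kb, 8.94% for 200 to 500 kb and 12.0% (9.96 to 14.4) for genes over 500 kb. Outside genes the share was 17.02% (16.03 to 18.04). Hotspots inside the longest genes were therefore close to the background of 12.4%, and genes over 500 kb held 7.87% of the higher hotspots and 8.14% of the others. A higher hotspot was found inside 353 protein-coding genes, of 3414 with any shared hotspot, and 37 genes held 2 or more. The 6 genes with at least 3 were Asic2, an acid-sensing ion channel gene (5 of its 9 shared hotspots), Lrmda (4 of 11), Nrg3, a neuregulin gene (4 of 8), Cntnap5b (3 of 5), Fam135b (3 of 4) and Thsd7b (3 of 4). These genes span 289.5 to 1108 kb, and hotspots in 1 gene share their surroundings.

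Higher hotspots lay in gene-poor territory. The median distance from their centre to the nearest end of a protein-coding gene was 93317 bp (79676 to 104266), against 38210 bp (36311 to 39918) for the other shared hotspots. It was larger on 17 of 19 autosomes. They had a median of 4 protein-coding genes with the midpoint within 500 kb, against 6, and 15.97% (14.04 to 18.04) had none, against 6.96% (6.45 to 7.49). Read the other way, 24.5% (21.7 to 27.5) of shared hotspots with no gene midpoint within 500 kb were higher hotspots, 16.7% of those with 1 or 2, 12.7% with 3 to 5, 9.44% with 6 to 10, 8.56% with 11 to 20 and 7.93% (6.29 to 9.84) with at least 21. By distance, the share was 25.6% beyond 500 kb from a gene end, 17.4% at 100 to 500 kb and 8.71% at 10 to 50 kb.

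Very close to genes the share did not fall further, though this rests on few hotspots. Of the 280 shared hotspots within 1 kb of a gene end, 39 (13.9%, 10.1 to 18.6) were higher hotspots. That share was above the 8.91% (7.70 to 10.2) at 1 to 10 kb, and its interval holds the 12.4% of all shared hotspots. The intervals at these distances overlap slightly. The median log2 ratio of shared hotspots was -0.22 within 1 kb and -0.26 at 1 to 10 kb. Those 39 were 2.92% (2.09 to 3.97) of all higher hotspots, against 2.56% (2.25 to 2.90) of the others. Among the 131 over 4-fold higher, however, 11 lay at a gene end (8.40%, 4.27 to 14.5). Of the 39, 11 had their centre within 1 kb of a start in the promoter table, which covers 16456 of the 20661 autosomal protein-coding genes.

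By knockout strength, the leading gene-end sites after that of Tnfaip3 were at Ptprm, a receptor phosphatase gene (270 to 477, log2 1.09), Gas2l2, a cytoskeletal linker gene (121 to 451, log2 2.17), and the olfactory receptor gene Olfr553 (118 to 404, log2 2.04). Then came Dclk3, a kinase gene (210 to 350, log2 1.01). Jam2, a junction adhesion gene (86 to 309, log2 2.11), and the zinc finger gene Zfp616 (172 to 308, log2 1.11) followed, with Cplane1 (298) and Lypla1 (291) closing the group. The promoters of Tnfaip3 and Cplane1 hold 3 and 5 GC boxes and that of Zfp616 none, so hotspots over starts of both kinds were among them.

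Counts in named groups of genes were small for most groups. Of 42 autosomal genes of the break machinery and recombination, 8 held or bordered a shared hotspot (8 hotspots), and 0 of these were higher while 4 were over 2-fold lower (median log2 -0.99). Among 20 axis and synaptonemal complex genes, 0 of 2 were higher, among 8 genes of telomere attachment 0 of 2, and among 39 ubiquitously expressed genes 0 of 3, all 3 of which were over 2-fold lower (median log2 -2.10). With 2 to 8 hotspots a list, a share near 12.4% would often give none. A list of 54 synaptic adhesion and long neuronal genes held 296 shared hotspots. Of these, 42 (14.2%) were higher, close to the 12.4% of all shared hotspots, and 25 were over 2-fold lower. The median log2 ratio of the 296 was 0.31, against -0.01 for all shared hotspots. Shared hotspots inside any gene over 500 kb had a share of 12.0% and a median of 0.10. The 42 lay in 29 genes. The strongest after Wwox and Cntnap5b were in Pcdh9, a protocadherin gene (493 to 829, log2 1.02), in the cadherin genes Cdh12 (285 to 651, log2 1.46) and Cdh18 (102 to 430, log2 2.34), and in the sarcoglycan gene Sgcz (157 to 416, log2 1.68). Pcdh9 held or bordered all 3 of the higher hotspots found among 12 in protocadherin genes, its other sites going from 70 to 285 and from 50 to 163. With 12 hotspots, that share cannot be told apart from 12.4% either.

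Olfactory receptor genes, of which 1104 are annotated on autosomes, had 10 shared hotspots. Of these, 3 were higher and 0 over 2-fold lower, where 12.4% and 15.9% of all shared hotspots were. With 10 hotspots, such shares cannot be told apart. Besides Olfr553 they were at Olfr1358 (47 to 127, log2 1.70) and Olfr527 (47 to 92, log2 1.24). Of 6 in vomeronasal receptor genes, again too few to compare, 1 was higher, inside Vmn2r56 (226 to 547, log2 1.54). Reads from near-identical copies in these families may be split or lost in alignment, which was not tested.

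Higher hotspots had fewer neighbours of every kind. A knockout-only hotspot lay within 100 kb of 40.0% (37.4 to 42.7), against 54.8% (53.8 to 55.8) of the other shared hotspots and 70.0% of those over 2-fold lower. The share was below that of the others on 19 of 19 autosomes and in each of the 5 bins of wild type strength, with 39.6% against 51.3% in the weakest and 30.8% of 13 against 55.7% in the strongest. Shared hotspots with no knockout-only hotspot within 100 kb were higher hotspots in 15.8% of cases, with 1 in 10.95%, with 2 in 8.39% and with at least 3 in 4.95% (3.61 to 6.61). Wild-type-only hotspots lay within 100 kb of 9.14% (7.65 to 10.8), against 15.0% (14.3 to 15.8). Another shared hotspot lay within 100 kb of 51.9%, against 62.3%, and the median distance to the nearest was 96100 bp, against 70941 bp.

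The nearest shared hotspot of a higher hotspot was more often higher too. It was itself a higher hotspot for 18.07% (16.04 to 20.24), against 10.5% (9.91 to 11.2) of the other shared hotspots. These shares depend on the scale: they were 9.97% against 6.18% with strengths as deposited, 27.8% against 16.4% when lists were scaled on their stronger shared hotspots, and 10.4% against 4.81% with the lower counting bound above 1. Above a log2 ratio of 2 it was 1 of 131 (0.763%, 0.0193 to 4.18) against 1.23%, too few to show an order. The median log2 ratio of that nearest hotspot was 0.31 (0.24 to 0.35), against -0.09 (-0.12 to -0.06). Along the order of shared hotspots, 887 higher hotspots had no higher hotspot on either side, while 134 runs held 2, 48 held 3, 7 held 4 and 1 held 7. With only 12.4% of shared hotspots higher, most would stand alone even if their order did not matter, so the 887 show no isolation. The run of 7, chr1:111794511-114280459, spanned 2486 kb with 1 protein-coding gene, Dsel, and 9 knockout-only hotspots. Its wild type strengths were 35 to 130, its knockout strengths 81 to 342 and its log2 ratios 1.01 to 1.67. The strongest site of this run lay 1405120 bp from Cntnap5a. Among the runs of 4, one near Arap2 on chromosome 5 (428 to 732 at its strongest site, log2 1.04) had no hotspot of a single list between its sites. Another, which starts at Olfr553 on chromosome 7, spanned 92 protein-coding genes, so runs were not limited to gene deserts. The 3 sites of Pcdh9 belong to yet another run of 4.

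Along chromosomes, higher hotspots were scarce near the distal ends. Only 3.15% (2.28 to 4.23) lay in the distal 10 Mb, measured to the last annotated gene or hotspot, against 7.26% (6.74 to 7.80) of the other shared hotspots and 15.0% (13.4 to 16.8) of those over 2-fold lower. None of the 27 shared hotspots in the last 1 Mb was a higher hotspot (upper bound 12.8%), nor any of the 36 at 1 to 2 Mb (9.74%). The share was 4.12% at 2 to 5 Mb, 7.25% at 5 to 10 Mb, 10.2% at 10 to 20 Mb and 13.2% farther away. At the other end, 4.12% lay between 3 and 10 Mb from the start of the chromosome, against 5.95%.

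The share of shared hotspots that were higher was largest on chromosome 12 (17.4%, 14.4 to 20.8), chromosome 15 (15.8%, 12.7 to 19.3) and chromosome 14 (15.65%, 12.70 to 18.99). It was smallest on chromosome 17 (7.97%, 5.48 to 11.1), chromosome 18 (8.39%, 5.88 to 11.5) and chromosome 2 (9.23%, 7.32 to 11.4). Of the intervals of these 6, those of chromosomes 14 and 15 exclude the overall 12.4% only narrowly, and all 6 were picked as the extremes of 19. In windows of 10 Mb with at least 20 shared hotspots, 237 in all, the median share was 11.9% and 8 windows had no higher hotspot. The highest was chromosome 1 from 110 to 120 Mb, with 13 of 30 (43.3%) and 17 protein-coding genes. Chromosome 14 from 90 to 100 Mb had 11 of 29, and from 80 to 90 Mb 10 of 31, with 9 and 5 genes. Chromosome 12 from 20 to 30 Mb had 14 of 37, with 51 genes. Chromosome 3 from 70 to 80 Mb had 8 of 23, with 21 genes. With windows in 5 bins by gene number, 17.0% of shared hotspots were higher hotspots in the bin with the fewest genes (5 to 36) and 10.8% in the bin with the most (129 to 314). In the bins between, in order of gene number, the share was 12.1%, 13.4% and 9.86%, so it did not fall at every step. Over the windows, Spearman's rho between this share and the number of genes was -0.29, a description, since windows share a list and its scaling.

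**Figure D5:**
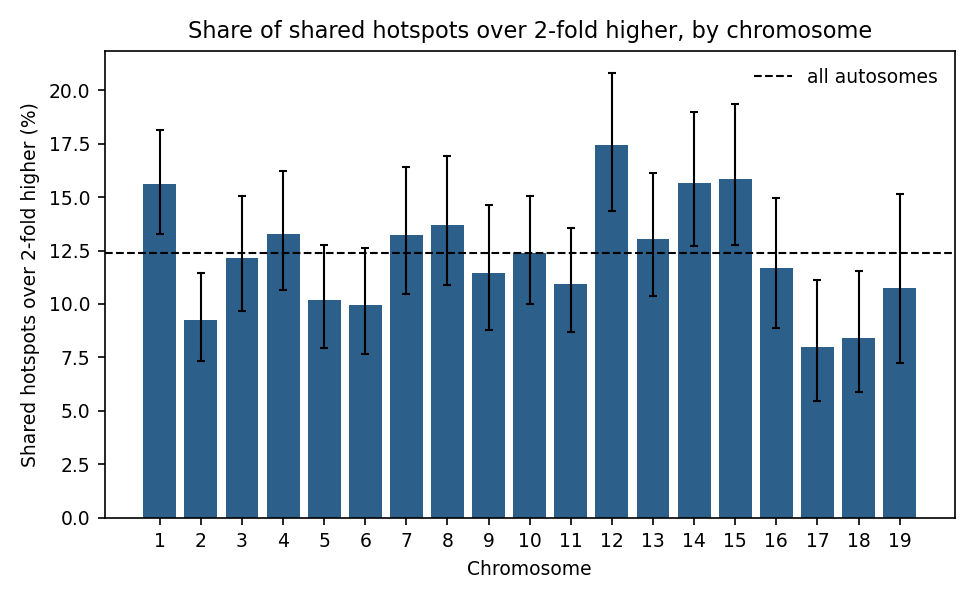
Percentage of shared hotspots that were over 2-fold higher (y axis) on each autosome (x axis), with exact 95% binomial intervals; the dashed line is the share over all autosomes, 12.4%. Chromosome 12 stands highest at 17.4% and chromosome 17 lowest at 7.97%.

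Widths differed less than strengths. The median wild type interval was 1612 bp (1596 to 1630) in higher hotspots and 1790 bp (1784 to 1798) in the others, and the median knockout interval 1559 bp and 1568 bp. The knockout interval was the wider one in 41.2% (38.6 to 43.9) of higher hotspots and 14.1% (13.4 to 14.8) of the others. In the weakest bin by wild type strength these shares were 54.0% and 30.5%. Among those over 4-fold higher it was wider in 58.8%. Width moved with strength: the 166 higher hotspots at or above the median wild type strength of shared hotspots had a median wild type width of 1803 bp. The rule selects on the ratio of strengths, also within bins of wild type strength. These width differences therefore describe the choice and are no separate result. The centres of the paired intervals were a median of 57 bp apart in higher hotspots and 49 bp in the others.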

How the data were processed

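DMC1-SSDS hotspots of adult testis were taken from 1 deposited list per genotype. The sources used here do not say whether it holds 1 or both of the 2 samples of that genotype. Build mm10 and the tools BWA, Bowtie2, MACS2 and CASAVA are listed in the submitters' processing notes, with neither role nor version. Per the file headers, each hotspot has a deposited read count, a background signal, a strength, which is a signal equal to the count minus the background in 100% of hotspots, and that strength as a percent of its list. Start positions are given as deposited.

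Lists were paired at an overlap of 1 bp with Python 3.11.15, pandas 2.3.3 and numpy 2.4.6, and every partner was unique. Intervals came from scipy 1.17.1. Positions are centres of wild type intervals. Genes came from RefSeq (GRCm38.p6), without strand, and promoters from a RefSeq promoter table. Gene-end hotspots had their centre at most 1 kb from the first or last base of a protein-coding gene. Pairing, ratios and annotation were tested on simulated data.

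The hotspots and gene lists were chosen with earlier results of these data known. Named hotspots were the 10 with the largest ratios, the 10 strongest in the knockout and 5 in the wild type, the 10 strongest at gene ends, the strongest of the 3 longest runs, up to 6 per gene list, and 3 on either side of the threshold. The 3 highest and 3 lowest chromosomes and the 5 highest windows were named too. One hotspot the rule names, at a gene end, is not reported here. Alternatives covered the scale, overlap, threshold, weak hotspots and window sizes.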

Additional observations from a re-analysis of the deposited data

How the results depend on the processing

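No paired analysis was possible because each genotype has 1 list and no value per animal, and for the same reason no replicate could be left out. Of 112 recomputed values, 65 stayed within the interval of the reported value (counts within 1.5 times) and 47 moved. The number of higher hotspots was 752 with strengths as deposited, 2101 when lists were scaled on their stronger shared hotspots, 131 above a log2 ratio of 2, 588 with the lower counting bound above 1, and 166 with wild type strength at or above the shared median. The share inside protein-coding genes moved to 32.6% with the scaling on stronger hotspots, 26.7% above a log2 ratio of 2, 26.7% with the lower counting bound, 19.9% in the stronger wild type hotspots, and 41.1% with all annotated genes. The share at gene ends was 8.40% above a log2 ratio of 2, 1.20% in the stronger wild type hotspots, 6.90% with all annotated genes, 0.900% within 500 bp, 5.40% within 2 kb and 1.27% at starts of the promoter table. The share with a knockout-only neighbour was 36.1% in the stronger wild type hotspots, 22.7% within 50 kb and 62.8% within 200 kb. The share whose nearest shared hotspot was a higher one was 9.97% as deposited, 13.0% on percent strength, 27.8% with the scaling on stronger hotspots, 15.8% on reads, 0.763% above a log2 ratio of 2, 10.4% with the lower counting bound, 14.6% without hotspots under the 10th percentile and 5.42% in the stronger wild type hotspots. The shares in this paragraph are of the higher hotspots alone, and a changed window or gene set can move the share of the other shared hotspots too. Except where values for those are given above, they do not show whether the difference between the groups held. Using the centre of the knockout interval, added after seeing the data, left every value within its interval. Several values could not move, because they do not use that setting. These were the number of higher hotspots, their wild type strength and width, and the share whose nearest shared hotspot was higher. Gene-end hotspots went from 39 (2.92%) to 49 (3.67%). Counting error limits single ratios: 746 of the 1334 have counting intervals that reach below 2-fold.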
